A study of Mus musculus with 18 samples.

Results

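The 10 genes described here encode structural proteins of elastic fibres and of the microfibrils that surround them. They are Eln, Fbn1, Fbn2, Emilin1, Mfap2, Mfap4, Mfap5, Fbln1, Fbln2 and Fbln5, chosen by name from their known function, with earlier results of these data known, out of 49184 mouse genes that could be counted. Their expression was followed in knee cartilage of the mouse after rupture of the anterior cruciate ligament (ACL), a model of post-traumatic osteoarthritis, by sequencing of total RNA from which ribosomal RNA had been removed. All 10 passed the filter on low counts.

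Wild-type male C57Bl/6J mice were 12 weeks old when a single 12 N load ruptured the ACL of the right knee. The injured group held 3 libraries at day 1 and 3 at day 7, and the contralateral group held 3 libraries of the unloaded left knee at each of the same days. A further 6 libraries came from naive mice, which were never loaded and are labelled with day 7. Mice were loaded under anaesthesia and an analgesic was given at the start of the experiment. Whether naive mice received either is not given in the sources used here. Cartilage caps of the femoral condyles were pooled, from 4 mice per library by the series' own text. A note to the study's design schematic gives that number for day 7, because of partial loss of cartilage. The mouse totals in the methods allow only smaller pools for the other groups. The injured and contralateral knees of a day came from the same mice. Left and right naive knees were pooled separately, so naive libraries share animals too and are not 6 independent pools. The labels do not say which libraries share mice. All were treated as separate replicates, and p-values measure only the spread between these libraries and may be too small. The libraries held between 16074762 and 41794005 estimated counts (median 25465706).

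An elastic fibre has a core of cross-linked elastin, the product of Eln, laid down on a scaffold of microfibrils. The microfibril is built mainly of the fibrillins, Fbn1 and Fbn2, and carries the small microfibril-associated glycoproteins Mfap2 and Mfap5. Fibulins, emilin-1 and Mfap4 sit at the interface between elastin and microfibrils and take part in assembly, lysyl oxidases cross-link the elastin, and latent TGF-beta binding proteins tie growth factor complexes to the fibrillins. In cartilage, fibrillin microfibrils lie in the matrix around chondrocytes and near the joint surface, while elastin itself is a minor part of the hyaline matrix.

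Sequences are shown for 3 stretches that the results below return to. The first is exon 9 of 18 of Fbln2-201, at chr6:91259630-91259770 on the plus strand of GRCm38. It is the coding exon of 141 bases, a multiple of 3, that Fbln2-202 leaves out, and it is shown because the levels of both transcripts differ between libraries below (GENCODE M21, no capitals used).
Fbln2-201 exon 9: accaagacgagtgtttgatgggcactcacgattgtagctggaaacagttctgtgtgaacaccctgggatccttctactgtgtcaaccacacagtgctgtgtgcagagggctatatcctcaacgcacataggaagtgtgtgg
The others are the stretches directly before the start of Mfap2, which rose with injury, and of Fbln1, which was not called, taken from the RefSeq promoter table for GRCm38.p6. They lie at chr4:141010174-141010417 and chr15:85205699-85205948 on the plus strand, and capitals mark matches to the motifs searched.
Mfap2 upstream: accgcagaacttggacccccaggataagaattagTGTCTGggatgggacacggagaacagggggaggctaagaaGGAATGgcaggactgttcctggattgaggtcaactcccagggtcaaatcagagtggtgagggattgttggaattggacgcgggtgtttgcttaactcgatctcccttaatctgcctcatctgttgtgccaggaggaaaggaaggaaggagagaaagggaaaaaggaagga
Fbln1 upstream: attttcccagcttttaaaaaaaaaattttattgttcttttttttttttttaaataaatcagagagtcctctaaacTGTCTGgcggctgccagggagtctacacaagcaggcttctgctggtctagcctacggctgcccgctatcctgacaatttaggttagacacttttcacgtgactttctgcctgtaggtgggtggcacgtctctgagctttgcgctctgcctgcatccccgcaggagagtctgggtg

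The motifs were the TATA box TATAAA, the GC box GGGCGG, the AP-1 motif TGANTCA, the Smad motif CAGACA and the TEAD motif GGAATG, each on both strands. Windows of 300 bases, 9 in all since some genes have more than 1 start, were at hand for 6 of the 10 genes, and the stretches printed above are only the parts before the gene start. GGGCGG was found in 5 of the 9 windows, against 35.7% of all 32851 windows, CAGACA in 5, against 21%, and GGAATG in 1, of Mfap2, against 14.7%. TATAAA and TGANTCA were found in none of the 9, against 13.6% and 7.81%. The Mfap2 stretch above holds 1 match each to CAGACA and GGAATG, and the Fbln1 stretch holds 1 match to CAGACA. A match describes letters only.

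Before the results, 4 libraries need a description. Day 7 contralateral replicate 1 had 42.5% of its counts in its 10 most abundant genes, against 16.6% to 29.8% in the 17 others, and a normalization factor of 0.696. Comparisons that do not need the day 7 contralateral group were fitted without that group, on 15 libraries. In a principal component analysis of the 17 remaining libraries, the first component (30.7% of the variance) set the 3 day 7 injured libraries, at 69.0 to 81.7, apart from the rest. On the second component (10.7%), naive replicate 5, day 1 contralateral replicate 3 and day 1 injured replicate 2 lay at 36.01 to 47.1, while the other 14 libraries lay between -32.4 and 3.82. These 3 libraries come from 3 different groups, and were left out in an added alternative.

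The label calls the tissue cartilage and the cells chondrocytes, and markers of cartilage were present with those of other cells. All 14 chondrocyte markers were detected, with Col2a1, the main cartilage collagen, at 3237 ± 886 CPM (SD, n = 6) in naive libraries, where CPM is the gene's count scaled to library size with TMM normalization. Markers of other cells were also present in every group. In naive libraries the haemoglobin gene Hbb-bs was at 14120 ± 1223 CPM, the neutrophil gene S100a8 at 2638 ± 537 CPM and the muscle actin Acta1 at 1434 ± 518 CPM. In pooled tissue such as this, more cells of a type and more RNA per cell cannot be told apart.

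At day 7 after injury, 9 of the 10 genes were higher than in naive cartilage and Fbln1 was not called, in edgeR's quasi-likelihood test with Benjamini-Hochberg adjustment over 21129 genes (FDR no higher than 0.05, change of 1.5-fold or more). The background share of genes called higher in this comparison was 10.4%, and no gene of the 10 was lower. The median log2 fold change of the 10 was 2.33, against -0.04 over all genes tested. By counts, Fbn2, Mfap4 and Mfap2 rose most, each more than 10-fold, while Emilin1 rose 2.28-fold and Fbln5 2.03-fold. The same 9 genes were called higher against the day 7 contralateral knee, where the background share was 9.33%. Naive and contralateral libraries are separate controls, but both comparisons use the same 3 injured libraries.

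**Figure D1:**
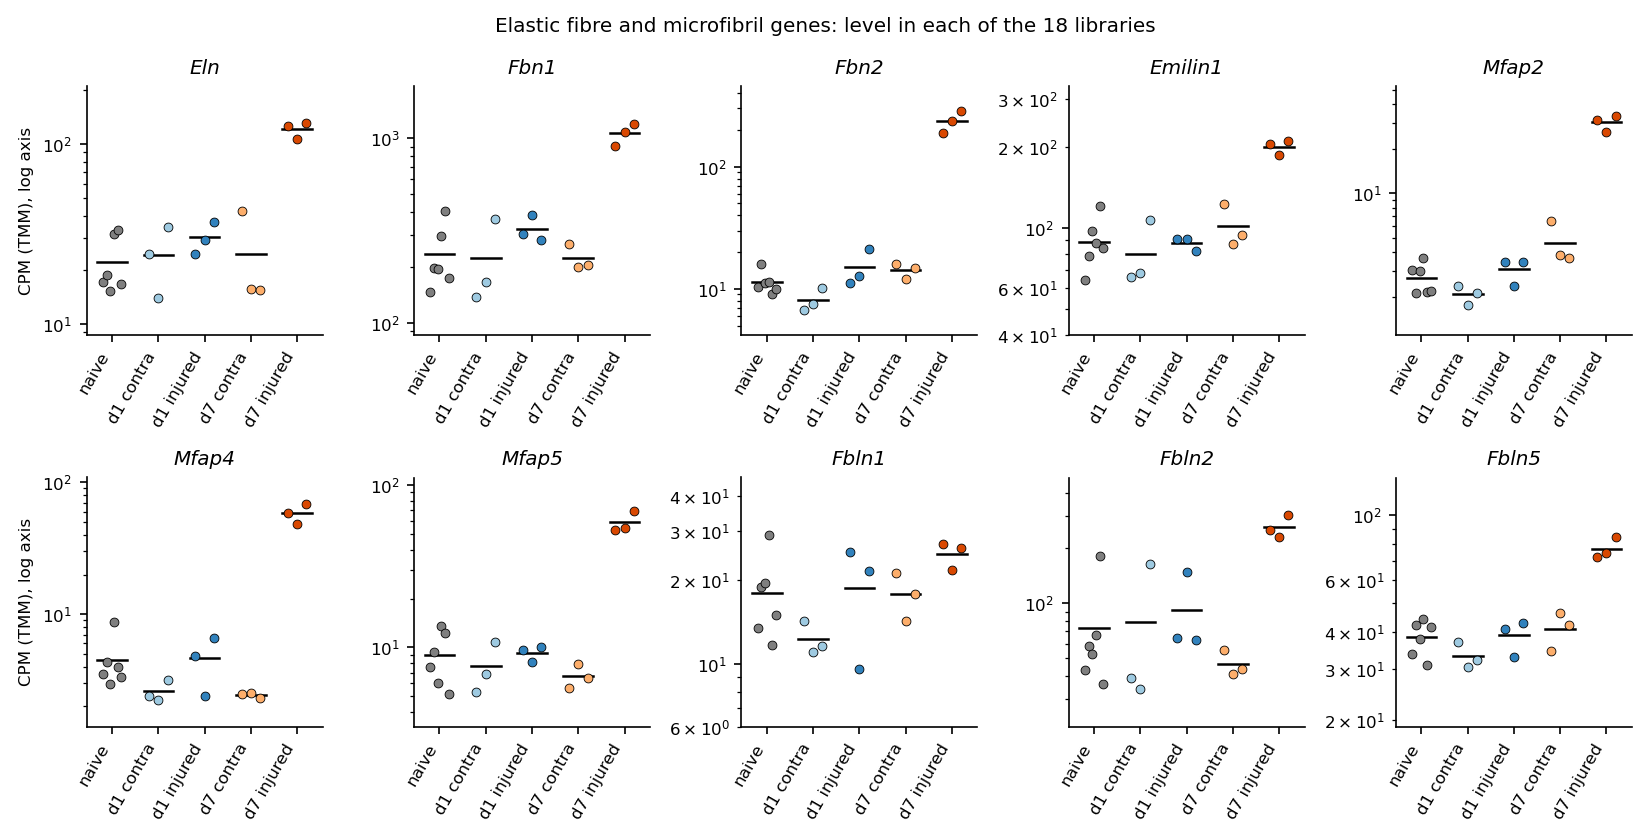
Level of each gene in all 18 libraries, in CPM on a log axis (TMM-normalised). Points are libraries, bars are group means, contra is the contralateral knee. Day 7 injured libraries lie above every other library for 9 genes, and for Fbln1 they overlap with the naive and day 1 injured libraries. The share of all genes with such a separation was not counted.

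Eln, which encodes elastin (chr5:134702593-134747323, minus strand), was at 15.3 to 33.2 CPM in naive libraries with a median of 17.98 CPM. The day 7 injured libraries held 126, 107 and 132 CPM, and the day 7 contralateral libraries 42.5, 15.8 and 15.4 CPM. The injured libraries were thus all above every control library, and the contralateral value of 42.5 belongs to the library with the unusual count distribution. Against naive cartilage the log2 fold change was 2.47 ± 0.27 (SE, adjusted p = 6.45e-06). Against the contralateral knee it was 2.32 ± 0.40 (adjusted p = 0.000508), and without contralateral replicate 1 it was 2.98 (adjusted p = 6.59e-05), which is a larger difference.

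Fbn1, the main fibrillin of adult tissue (chr2:125300594-125507993, minus strand), was the most abundant of the 10 in reads. Its level in naive libraries was 147 to 401 CPM, with a median of 197 CPM. The day 7 injured libraries reached 909, 1074 and 1197 CPM. No control library came near this range, and the highest of them was naive replicate 5, at 401 CPM. The log2 fold change was 2.18 ± 0.31 against naive (adjusted p = 7.37e-05) and 2.24 ± 0.37 against contralateral cartilage (adjusted p = 0.000282).

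Fbn2, the fibrillin best known from development (chr18:58008623-58210487, minus strand), rose the most of the 10 against naive libraries by counts. Per transcript length for the whole gene, and against the contralateral knee, it did not rise the most. Naive libraries held 9.10 to 15.9 CPM with a median of 10.8 CPM. Day 7 contralateral libraries held 16.04, 12.1 and 14.7 CPM, and day 7 injured libraries held 189, 239 and 286 CPM. The groups were far apart, and the spread among the injured libraries was small beside the difference. The log2 fold change was 4.42 ± 0.20 against naive (21.4-fold, adjusted p = 1.81e-09) and 4.06 ± 0.26 against contralateral cartilage (adjusted p = 1.84e-08).

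The size of the Fbn2 rise depended on the unit. TPM divides each transcript's count by its length before scaling, and on that scale the ratio of group means was 8.63, against 21.01 by CPM, and was below those of Mfap4 (10.8) and Mfap2 (9.10). The scales also differed for Fbn2-203, a retained-intron fragment of 489 bases beside the coding Fbn2-201 of 11041 bases. In naive libraries Fbn2-203 took 39.6% ± 18.2 (SD, n = 6) of the gene's TPM but 2.66% ± 1.81 of its estimated counts, on 1.61 to 14.2 counts per library. In day 7 injured libraries it took 3.14% ± 1.14 (n = 3) of TPM. The coding Fbn2-201 alone went from 0.480 ± 0.071 to 9.10 ± 2.87 TPM, and fitting with average transcript lengths as offsets gave a log2 fold change of 3.44 for the gene, below 3.75 for Mfap4 and 3.53 for Mfap2. The most abundant coding transcripts of those genes, Mfap4-202 and Mfap2-201, rose less in ratio of mean TPM than Fbn2-201. They went from 1.19 ± 0.62 to 11.9 ± 5.86 TPM and from 1.49 ± 0.37 to 12.0 ± 4.69 TPM.

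**Figure D2:**
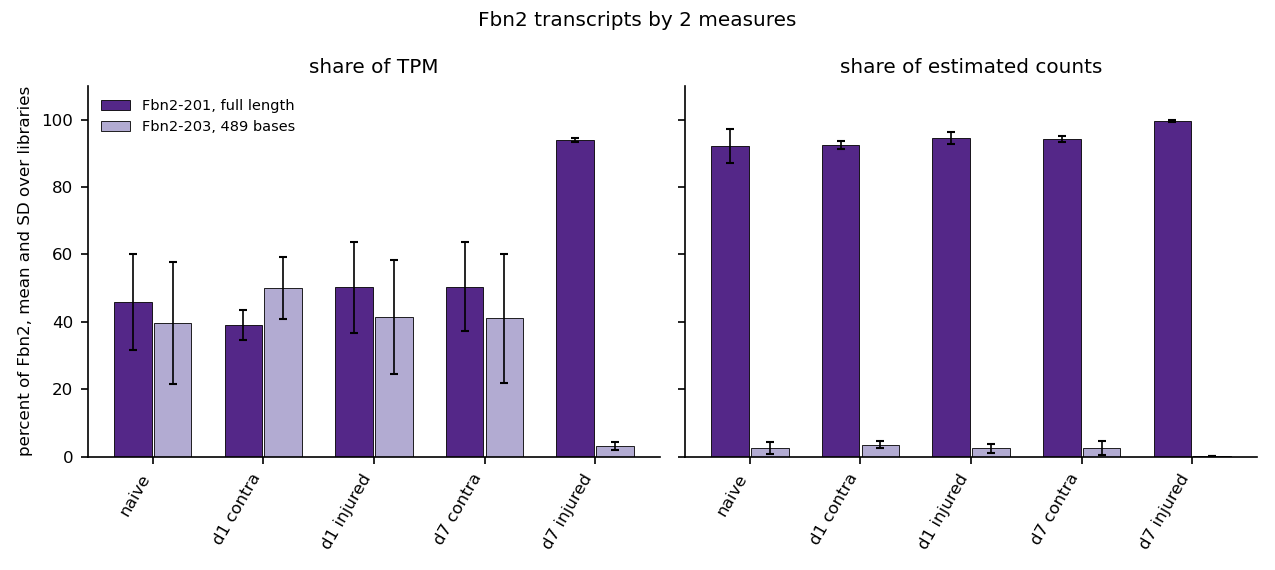
Share of Fbn2 held by its coding transcript Fbn2-201 and by the short Fbn2-203, in percent of TPM (left) and of estimated counts (right); bars are group means and error bars SD over libraries. By counts Fbn2-201 holds 92.1% in naive and 99.6% in day 7 injured libraries, while by TPM it holds 45.8% and 94.0%.

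Of the microfibril-associated glycoproteins, Mfap2 (also known as MAGP-1, chr4:141010418-141015984, plus strand) was rare in controls. Naive libraries held 2.12 to 3.64 CPM, with a median of 2.59 CPM. The injured libraries at day 7 held 31.5, 26.1 and 33.2 CPM, and the contralateral ones 6.46, 3.83 and 3.65 CPM. The contralateral values did not overlap with the naive ones, although the difference was not called (log2 fold change 0.75 ± 0.21, adjusted p = 0.248 by edgeR). Injury against naive gave a log2 fold change of 3.50 ± 0.17 (adjusted p = 2.13e-09), and injury against contralateral gave 2.73 ± 0.24 (adjusted p = 6.31e-07).

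Mfap5 (MAGP-2, chr6:122505845-122529290, plus strand) was at 5.20 to 13.6 CPM in naive libraries, with a median of 8.48 CPM, and at 53.1, 54.1 and 69.5 CPM in day 7 injured ones. The lowest injured value was well above the highest control value. Its log2 fold change was 2.72 ± 0.26 against naive (adjusted p = 1.87e-06) and 3.14 ± 0.33 against contralateral cartilage (adjusted p = 3.63e-06).

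Mfap4, a fibrinogen-domain glycoprotein that binds elastin and fibrillin (chr11:61485431-61488900, plus strand), had the largest fold change against the contralateral knee. Naive libraries held 2.97 to 8.67 CPM with a median of 3.74 CPM. Contralateral libraries at day 7 held 2.49, 2.54 and 2.33 CPM, all below the naive range, and injured ones 58.3, 48.6 and 68.1 CPM. Contralateral cartilage against naive was not called (log2 fold change -0.87 ± 0.34, adjusted p = 0.267). The log2 fold change with injury was 3.72 ± 0.30 against naive (adjusted p = 3.49e-07) and 4.57 ± 0.40 against contralateral cartilage (adjusted p = 5.00e-07).

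Emilin1 (chr5:30913402-30921277, plus strand), which lies between elastin and microfibrils, was among the most abundant of the 10 per transcript and changed by much less. Naive libraries ranged from 64.0 to 120 CPM with a median of 86.1 CPM, and day 7 injured libraries held 204, 187 and 210 CPM. All 3 were above the highest control, which was contralateral replicate 1 at 122 CPM. On the log2 scale the change was 1.19 ± 0.17 against naive (adjusted p = 7.83e-05) and 0.99 ± 0.20 against contralateral cartilage (adjusted p = 0.0022).

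Of the 3 fibulins, Fbln5, which is needed to assemble elastin on microfibrils (chr12:101746565-101819055, minus strand), was at 30.9 to 44.2 CPM in naive libraries with a median of 39.7 CPM. Day 7 injured libraries held 72.1, 74.3 and 84 CPM, above all others. Its change on the log2 scale was 1.02 ± 0.11 against naive (adjusted p = 7.47e-06) and 0.90 ± 0.15 against contralateral cartilage (adjusted p = 0.000271).

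Fbln1, a fibulin of basement membranes and elastic fibres (chr15:85205949-85286535, plus strand), was the only one of the 10 that was not called. Naive libraries held 11.7 to 29.0 CPM with a median of 16.98 CPM, and day 7 injured libraries 26.8, 21.7 and 26.1 CPM. The groups overlapped, since naive replicate 4 was the highest of all 18 libraries. The log2 fold change was 0.49 ± 0.27 against naive (adjusted p = 0.197) and 0.49 ± 0.32 against contralateral cartilage (adjusted p = 0.322), where the injured libraries all lay above 14.3, 17.9 and 21.3 CPM. A change of the size seen for Fbln5 lies within about 2 standard errors of these values.

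Fbln2, which binds fibrillin, elastin and proteoglycans (chr6:91212455-91272540, plus strand), varied the most among the 10 in naive libraries, which ranged from 36.2 to 181 CPM, with a median of 55.6 CPM, and day 7 injured ones held 251, 232 and 305 CPM. Among the 15 other libraries, naive replicate 5, day 1 contralateral replicate 3 and day 1 injured replicate 2 held 149 to 181 CPM and the remaining 12 held 33.7 to 67.1 CPM, so that the ranges did not overlap. Day 7 injury gave a log2 fold change of 1.86 ± 0.52 against naive (adjusted p = 0.0142), and 2.50 ± 0.62 against contralateral cartilage (adjusted p = 0.00848). Without these 3 libraries it was 2.35 against naive (adjusted p = 2.20e-07), and without day 7 injured replicate 3 it was 1.74 and no longer called (adjusted p = 0.0557).

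The 3 libraries, which stood apart on the second component too, lay outside the range of the other 12 for further genes of the pathway, which were picked after their values were seen. Fbn1 was at 367 to 401 CPM in them, against 137 to 301 CPM in the 12 others. The protease inhibitor Timp1 was at 87.6 to 94.0 against 5.26 to 15.3 CPM, and Ltbp2, a fibrillin-binding protein, at 147 to 161 against 28.9 to 52.4 CPM. Itga5, a fibronectin receptor subunit, was at 111 to 131 against 41.6 to 57.5 CPM, and the elastin cross-linking enzyme Lox at 232 to 251 against 57.4 to 162 CPM. Apart from Fbln2 and Fbn1, the ranges of the elastic fibre genes in the 3 libraries overlapped with those in the 12. Fbln1 (9.59 to 11.7 against 11.03 to 29.0 CPM) and Fbln5 (30.9 to 32.8 against 30.4 to 46.5 CPM) lay at the low end. Among markers of cells, Prg4, the lubricin gene of the cartilage surface and synovium, was at 1408 to 1773 CPM in the 3 against 240 to 892 CPM, and the summed adipocyte markers at 342 to 422 against 590 to 1186 CPM. The sums of the other 10 marker lists overlapped. The part of these in the values of Fbln2 and Fbn1 was not tested. With the 3 libraries left out, 9 of the 10 genes were again called at day 7 against naive. The share of all genes called higher in that comparison was 10.4% with them in, and the share without them is not given here.

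The transcripts of Fbln2 divided along the same lines. Fbln2-201, which holds the exon 9 printed above, had between 1.97 and 6.89 TPM in the 15 libraries other than day 7 injured. Fbln2-202, which lacks it, had 15.2, 14.8 and 16.5 TPM in the 3 libraries described and 0.166 to 4.11 TPM in the 12 others. In the day 7 injured libraries Fbln2-202 had 13.03, 12.3 and 18.9 TPM and Fbln2-201 had 6.08, 7.07 and 9.65 TPM. The share of Fbln2-202 in the gene's TPM was 28.8% ± 15.6 in naive and 51.5% ± 6.59 in day 7 injured libraries, a difference that was not called (exact permutation test, 2-sided, p = 0.0714, adjusted p = 0.411 over 23 transcripts).

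**Figure D3:**
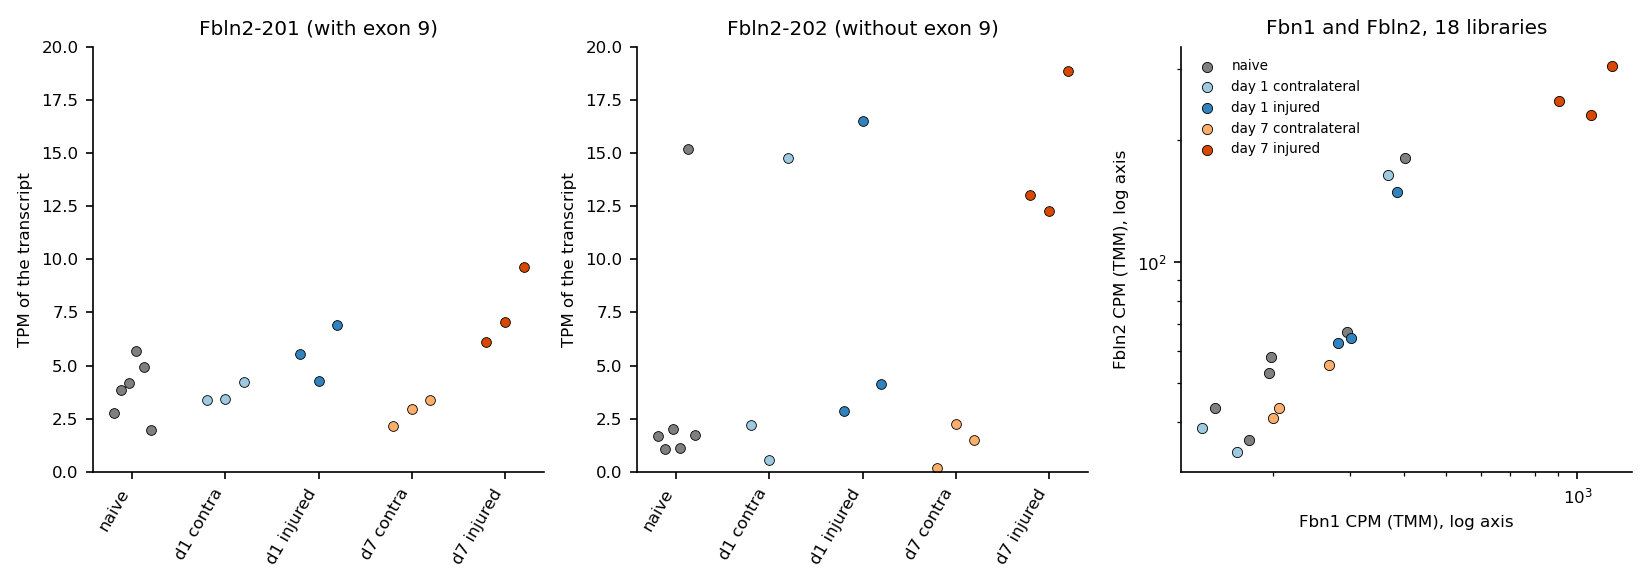
TPM of Fbln2-201 and Fbln2-202 in each library (left, middle) and Fbln2 against Fbn1 in CPM on log axes (right); points are libraries, colours are groups. For Fbln2-202, 1 naive, 1 day 1 contralateral and 1 day 1 injured library lie at 14.8 to 16.5 TPM, within the range of the day 7 injured libraries, and the same libraries lie between the control and day 7 injured points on the right.

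Transcript shares were compared for 23 transcripts of 9 genes, each with at least 10% of its gene's TPM in some group. Fbn1 was not compared, since Fbn1-201 was its only transcript past that share (97.4% in naive libraries). No share passed after adjustment (lowest adjusted p = 0.274), and none could have passed alone, since 0.274 is what the smallest possible p becomes for a single transcript. By the exact permutation test alone, 2 had a p under 0.05, a count that went from 1 to 5 when single libraries were left out and was 3 by estimated counts. Both were of Fbn2 by that exact test: the share of Fbn2-201 rose by 48.2 points (p = 0.0119, the smallest that 3 against 6 libraries allow) and that of Fbn2-203 fell by 36.5 points (p = 0.0238). Eln-201, the coding elastin transcript, held 67.7% ± 9.10 in naive and 77.2% ± 8.44 in injured libraries, Emilin1-201 held 91.1% ± 5.62 and 98.0% ± 0.66, and Fbln1-202 held 64.8% ± 3.72 and 69.3% ± 6.74. These differences did not pass the test.

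Levels can be ordered between genes only per transcript length, so TPM was used for this. In naive libraries Emilin1 (12.8 ± 3.49 TPM), Fbn1 (12.6 ± 5.54), Fbln2 (10.2 ± 8.22) and Fbln5 (8.65 ± 1.05) led. They were followed by Mfap5 (4.73 ± 1.78), Fbln1 (3.48 ± 1.09), Eln (3.45 ± 1.32), Mfap4 (1.73 ± 0.77), Mfap2 (1.603 ± 0.44) and Fbn2 (1.12 ± 0.32). Only Fbln5 and Mfap5 among neighbours in that order had ranges that did not overlap. In day 7 injured libraries Fbn1 led at 46.2 ± 11.5 TPM, followed by Fbln2 (28.9 ± 7.85), Mfap5 (25.2 ± 8.23), Emilin1 (22.4 ± 3.34), Mfap4 (18.7 ± 2.89), Eln (14.8 ± 3.15), Mfap2 (14.6 ± 2.42), Fbln5 (14.4 ± 3.03), Fbn2 (9.69 ± 3.10) and Fbln1 (4.05 ± 0.60). There the ranges of neighbours overlapped except between Fbn2 and Fbln1.

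TPM was not normalised between libraries here, and the summed TPM of the 10 genes was 26.6 in day 7 contralateral replicate 1 against 45.3 to 121 in the other 14 libraries not from day 7 injury. It was 84.6, 109.7 and 121 in the day 1 injured libraries and 45.3 to 94.15 in the naive ones. In the injured libraries at day 7 it was 160, 189 and 248.

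One day after injury, none of the 10 genes was called. Against the day 1 contralateral knee the background share called higher was 0.0%, since edgeR, DESeq2 and limma-voom called no gene at all, and 2 of the 10 had an unadjusted p under 0.05, against 6.55% of all genes. Both lay above the contralateral range. Fbn2 held 11.3, 12.8 and 21.1 CPM in the injured and 6.69, 7.50 and 10.3 CPM in the contralateral libraries (log2 fold change 0.87 ± 0.24, adjusted p = 0.755 by edgeR). Mfap2 held 3.42, 2.38 and 3.44 against 2.36, 1.76 and 2.12 CPM (0.55 ± 0.21, adjusted p = 0.755). The log2 fold change was above 0 for all 10, with a median of 0.42 against 0.00 over all genes tested, and the same contralateral libraries had a median of -0.22 against naive. Over 22 alternative settings it ran from -0.31 to 1.35 for Fbln2 and from -0.003 to 0.39 for Emilin1, so these signs were not stable.

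Against naive libraries, the same day 1 injured libraries gave 0 of 10 called by edgeR, DESeq2 and limma-voom and none with an unadjusted p under 0.05, against 4.54% of all genes. The background share called higher by edgeR was 0.0%, and the median log2 fold change of the 10 was 0.12. By CPM, Fbn2 at day 1 overlapped with the naive range (0.41 ± 0.21). By TPM, which was not normalised between libraries, it held 1.58 to 2.51 against 0.828 to 1.57 in naive libraries. Fbln5 held 10.55 to 17.01 against 7.47 to 9.75 TPM, and the TPM ranges of the remaining genes overlapped. By CPM, Fbln5 was at 38.9 ± 5.35 in day 1 injured and 38.3 ± 5.27 in naive libraries, with overlapping ranges. The share of all genes with TPM ranges apart was not counted, so these ranges are not read as a result about the genes. The day 1 contralateral knee against naive had 0 of 10 called by any of the 3 tools, with a background share of 0.0% by edgeR. It had 1 unadjusted p under 0.05 by edgeR (Mfap4, -0.77 ± 0.34) against 2.62% of all genes, and a median of -0.22. The day 7 contralateral knee against naive likewise had 0 of 10, with a background share of 0.0% by edgeR and limma-voom, while DESeq2 called 18 of 21244 genes higher and 13 lower. By edgeR it had 2 unadjusted p-values under 0.05, the Mfap2 and Mfap4 differences given above. In that comparison 15.1% of all genes had such a p, so 2 of 10 is close to the background.

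Between day 1 and day 7 in the injured knee, 8 of the 10 genes rose, with a background share called higher of 9.04%. Fbn2 had a log2 fold change of 4.01 ± 0.26 (adjusted p = 1.26e-07), Mfap4 of 3.69 ± 0.39 (adjusted p = 1.23e-05) and Mfap2 of 3.32 ± 0.21 (adjusted p = 1.12e-07). Fbln1 and Fbln2 were not called. For Fbln2 all day 7 values were above 149, 64.9 and 62.8 CPM (1.52 ± 0.63, adjusted p = 0.0921), and without the 3 libraries that stood apart it was 2.03 and called (adjusted p = 3.95e-05). Leaving out day 1 contralateral replicate 3 or naive replicate 5 alone also brought it past the threshold.

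Each injured group was also set against the contralateral group of its day, by group means and without pairing of knees. Whether injury so measured changed the genes more at day 7 than at day 1 was tested as an interaction. It was called for 5 of the 10 genes, with a background share called higher of 3.53%. Mfap4 had the largest difference (3.76 ± 0.52 on the log2 scale, adjusted p = 0.000412), followed by Fbn2 (3.19 ± 0.34, adjusted p = 4.22e-05), Mfap5 (2.87 ± 0.44, adjusted p = 0.00099) and Mfap2 (2.17 ± 0.34, adjusted p = 0.00112). Eln was at the threshold (2.01 ± 0.55, adjusted p = 0.0496) and lost the call in 18 of 25 alternatives. Fbn1 missed it (1.70 ± 0.50, adjusted p = 0.0674, and 1.29, adjusted p = 0.0517, without the 3 libraries), and Fbln1 had -0.12 ± 0.45. Fbln2 had 2.28 ± 0.84 (adjusted p = 0.16) and was called without the 3 libraries (1.68, adjusted p = 0.00701).

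**Figure D4:**
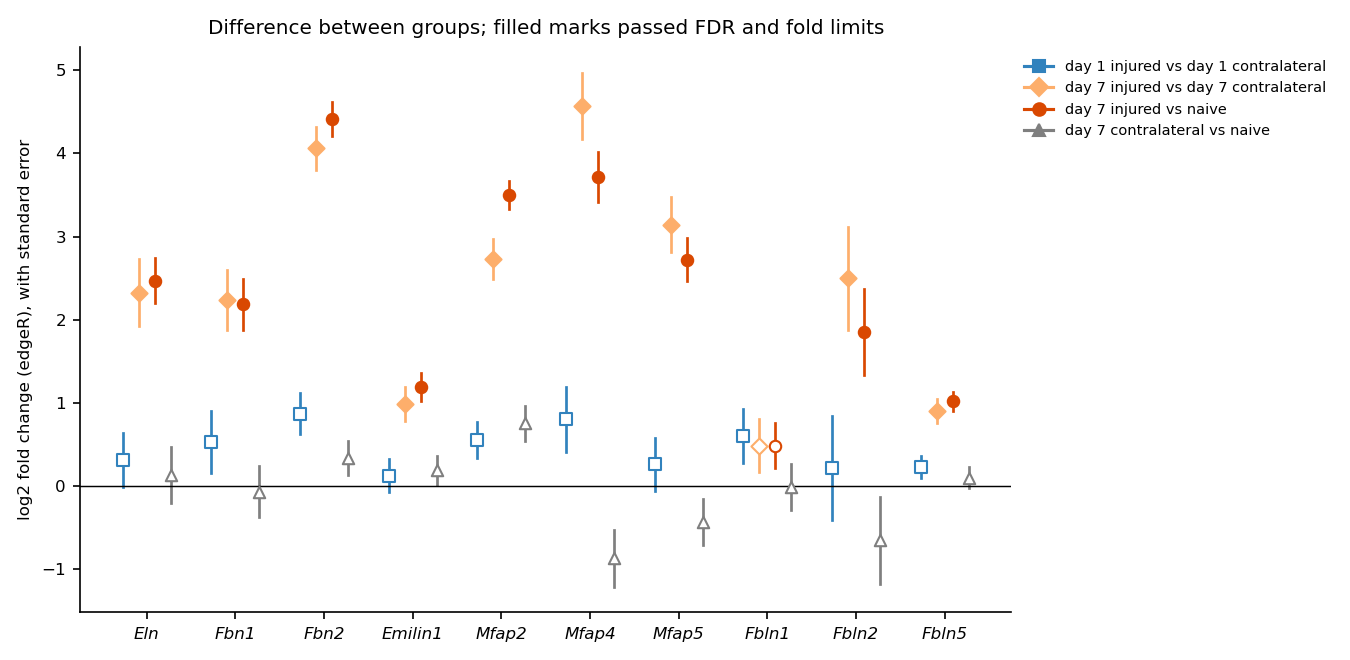
Log2 fold change of each gene by edgeR in 4 comparisons, with its standard error as a bar; filled marks were called (FDR no higher than 0.05, change of 1.5-fold or more). Marks of both day 7 injury comparisons are filled for 9 genes and open for Fbln1, and those of the day 1 comparison and of contralateral against naive are open throughout.

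As a description over 18 libraries, the log2 CPM of the 45 pairs had Pearson's r from 0.197 to 0.968. The day 7 injured libraries are among the points, and both genes of a pair share library and normalization. For the deviations from group means r ranged from -0.462 to 0.919, with a median of 0.264 and 36 of 45 above 0. Fbn1 deviated together with Fbln2 (0.919) and Emilin1 (0.865), while Fbln2 and Fbln5 had -0.462. The 3 libraries weigh on these values. Without them, over 15 libraries, the range was -0.271 to 0.851 with a median of 0.428 and 40 of 45 above 0, and Fbn1 had 0.735 with Fbln2 and 0.636 with Emilin1, while Fbln2 and Fbln5 had 0.148. Over the 18 libraries, the genes outside the 10 that were most like their mean profile among 21262 were P4ha2 (r = 0.992), Anpep (0.989), Mxra7 (0.989), Scx (0.988) and Ppfibp1 (0.987). P4ha2, a subunit of the collagen prolyl hydroxylase, went from 15.04 ± 2.36 to 84.9 ± 6.73 CPM between naive and day 7 injured libraries, and Scx, a transcription factor of tendon, from 2.96 ± 1.00 to 22.5 ± 1.23 CPM.

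The rest of the elastic fibre pathway was read from 6 lists, of which 28 of 58 tested genes were called higher at day 7 against naive and none lower, where the shares over all genes were 10.4% and 6.11%. Without the 3 libraries above, 30 were called higher and 3 lower (Hmcn2, Papln and Timp4), and 7 calls changed. The shares over all genes given above are from the fit with those libraries in. Shares without them are not given here, so the 30 and the 3 have no matching background. Enzymes that cross-link elastin and the latent TGF-beta binding proteins had 8 of 9 called, with a median log2 fold change of 1.54. Loxl2 rose from 81.0 ± 16.7 to 589 ± 116 CPM (2.88 ± 0.18), and Lox, the most abundant of the list by TPM, from 132 ± 61.3 to 628 ± 119.4 CPM (2.27 ± 0.38). Loxl3 (1.92 ± 0.24), Loxl1 (1.81 ± 0.25) and Ltbp3 (1.54 ± 0.12) rose too. Ltbp2 was the exception, at 61.8 ± 45.3 and 111.6 ± 14.6 CPM (0.86 ± 0.56, adjusted p = 0.262). It was one of the genes that were high in the 3 libraries above, and without them it was called higher (1.36 ± 0.13, adjusted p = 3.01e-06).

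Of the fibulin and emilin relatives 4 of 9 were called. Emilin3 (2.69 ± 0.30), Hmcn1, which encodes a giant relative of the fibulins (2.34 ± 0.23, but 1.53 with transcript length offsets), Fbln7 (1.88 ± 0.32) and Efemp2, the fibulin-4 gene needed for elastin cross-linking (1.52 ± 0.24), rose. Emilin2, the most abundant by TPM, was at 122 ± 9.65 in naive and 120 ± 4.97 CPM in injured libraries. Of the ADAMTS and ADAMTS-like proteins, many of which bind fibrillin, 5 of 11 were called, led by Adamtsl1 (1.70 ± 0.18), Adamts17 (1.55 ± 0.23), Adamtsl4 (1.42 ± 0.15), Adamtsl3 (1.10 ± 0.26) and Adamts6 (1.04 ± 0.14), while the most abundant by TPM, Adamts10, was not (0.20 ± 0.15).

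Receptors for elastin and microfibrils had 5 of 11 called. Itga5 (1.31 ± 0.38), Itgb5 (1.10 ± 0.12) and Itgb1 (1.01 ± 0.09) are integrin subunits, as is Itgav (0.76 ± 0.12), and Glb1 (0.73 ± 0.11) encodes the beta-galactosidase whose splice variant binds elastin. Itga5 lost its call in 1 of 22 alternative settings, that without day 7 injured replicate 3 (adjusted p = 0.086 by edgeR). Of the proteases that can degrade elastin or the fibre around it, 4 of 10 were called. Mmp2 (gelatinase A) rose from 124 ± 17.8 to 1196 ± 194 CPM (3.29 ± 0.15), and Mmp14, the membrane protease that activates it, from 98.3 ± 15.9 to 688 ± 130 CPM (2.83 ± 0.15). Ctsk (1.25 ± 0.16) and Ctsl (0.97 ± 0.16) encode cathepsins, and a further one, Ctss, was called higher only without the 3 libraries (0.60 ± 0.20, adjusted p = 0.0348).

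The protease with the highest TPM, neutrophil elastase Elane, was at 285 ± 66.3 in naive and 208 ± 47.4 CPM in injured libraries and was not called (adjusted p = 0.176). Mmp7 never exceeded 3 counts in a library and was not tested. Of the inhibitors 2 of 8 were called: Timp2 (2.09 ± 0.19) and Serpine2 (0.59 ± 0.11), which lost its call in 15 of 22 alternative settings, among them that without the 3 libraries (0.51 ± 0.09). Timp1 was at 59.0 to 83.3 CPM in day 7 injured libraries and had a naive median of 10.1 CPM, with naive replicate 5 at 94.0 CPM. It was not called (1.52 ± 0.96, adjusted p = 0.25), but was called higher without the 3 libraries (2.83 ± 0.22, adjusted p = 6.34e-07). Timp4 was then lower (-1.45 ± 0.23, against -1.27 ± 0.51 and not called with them). Cst3, the most abundant by TPM, was not called (0.28 ± 0.12, adjusted p = 0.0967).

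**Figure D5:**
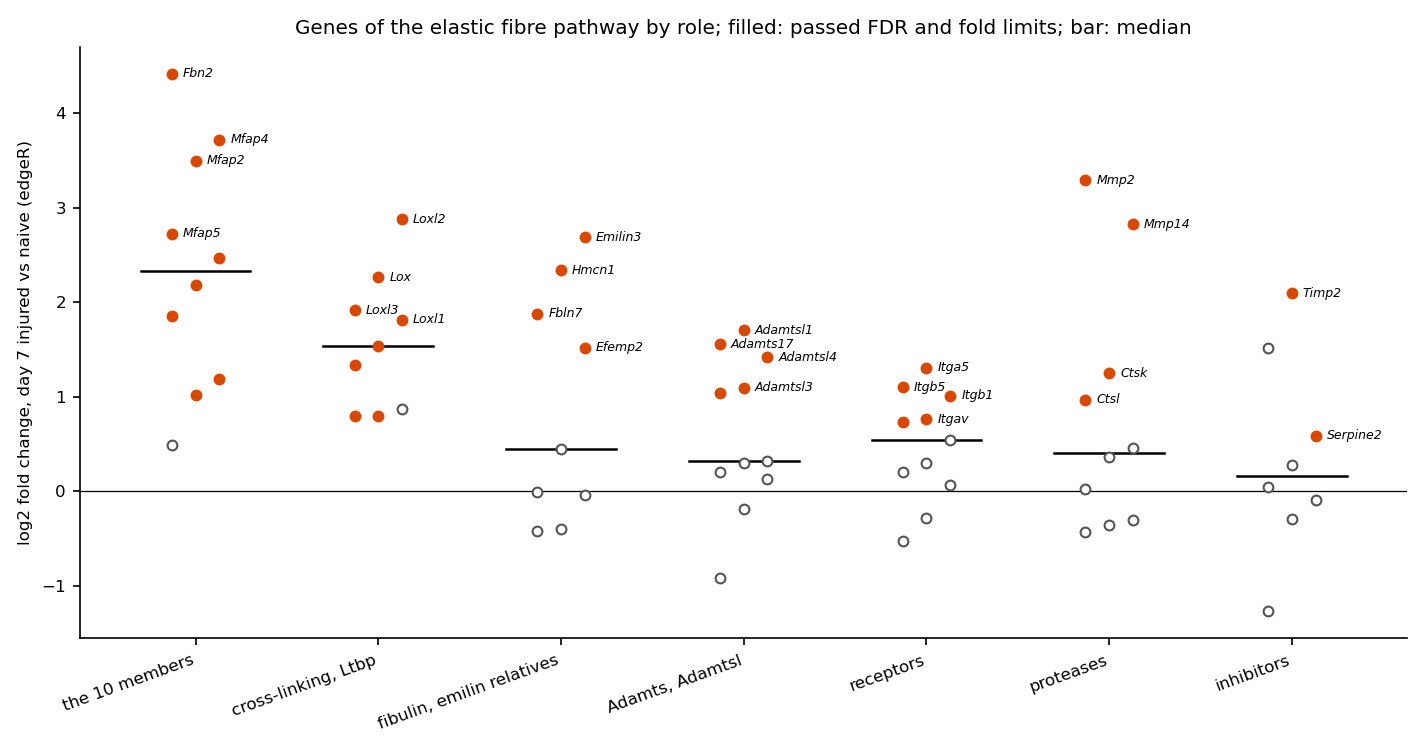
Log2 fold change of day 7 injured against naive libraries by edgeR for the 10 genes and for 6 lists of the pathway; each point is a gene, filled where called, and the bar is the list's median. The 10 genes have a median of 2.33, cross-linking and Ltbp genes 1.54, and the other lists 0.16 to 0.54.

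Markers of other cells moved in the same comparison, in which 10.4% of all genes were called higher and 6.11% lower. Fibroblast markers had 8 of 13 called higher. Their summed level was 69820, 74090 and 80180 CPM in the day 7 injured libraries against 10790 to 18480 CPM in naive ones. Most of that sum was Col1a1, which encodes a chain of type I collagen (12410 ± 3805 CPM in naive and 50890 ± 3851 CPM in day 7 injured libraries), so the sum mainly follows this gene. All 8 tendon and ligament markers rose, with sums of 5227, 6367 and 7515 CPM against 1174 to 1669 CPM, the most abundant by TPM being Fmod, fibromodulin. Smooth muscle and pericyte markers had 5 of 10 higher and endothelial markers 5 of 10. Chondrocyte markers had 4 of 14 higher (Acan, Sox9, Comp, Col11a1) and 1 lower (Chad), the latter near the background, with sums of 8654, 10100 and 10540 CPM against 5097 to 9255 CPM.

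No macrophage marker was called in this comparison by edgeR, and 5 of 10 had an unadjusted p under 0.05, close to the 41.1% of all genes. Lower were 2 of 10 neutrophil, 4 of 9 erythroid and 5 of 10 adipocyte markers, and 1 of 10 skeletal muscle markers, which is near the share of all genes. Osteoblast and osteocyte markers had 2 of 10 lower and 1 higher, the latter at about the 10.4% of all genes. Every marker on these lists exceeded 3 counts in some library. Day 7 contralateral replicate 1 had a fibroblast sum of 56740 CPM and an erythroid sum of 64800 CPM, against at most 23510 and 41440 CPM in the other libraries not from day 7 injury, while its tendon sum was 1219 CPM. Of its fibroblast sum, 52400 CPM was Col1a1. Its chondrocyte sum was 15230 CPM, against at most 10540 CPM in any other library. The part of other cell types in the rise of the elastic fibre genes was not tested.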

How the data were processed

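Per the methods, reads were trimmed with Trimmomatic and quantified with kallisto by the authors. For each transcript they deposited an estimated count, a TPM value and its length and effective length. The submitters' notes name GRCh38 as the build, while the methods name GRCm38 and the files hold mouse transcripts. The 137436 transcripts of each deposited file were matched by identifier to GENCODE M21, which gave a gene to 135107 of them (98.3%). The 2329 others held 0.667% to 3.90% of a library's counts and were left out.

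The deposited expected (estimated) counts were added up per gene, which gave 49184 genes, then rounded and tested with edgeR 4.0.16 (R 4.3.3, TMM, filterByExpr, quasi-likelihood test, 1 mean per group, Benjamini-Hochberg), on 15 libraries (21129 genes) or, where the day 7 contralateral group was needed, on 18 (21262 genes). Calls needed an FDR no higher than 0.05 and a change of 1.5-fold or more. The standard error is the size of the log2 fold change over the square root of F. The deposited TPM values, which the authors' run of kallisto scales by length and total, were used for levels between genes and for transcript shares. The study removed 1 ACL library for low mapping and does not name it, so whether it is among those used here, such as day 7 contralateral replicate 1, is not known. Each comparison was also fitted without that replicate where it entered. Samples were grouped by the labels, with replicates numbered in accession order. Transcripts with few estimated counts carry a large counting error. Genes that never exceeded 3 counts were taken as at the floor.

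DESeq2 1.42.0, limma-voom (limma 3.58.1), DESeq2's size factors, no filter, transcript length offsets, other libraries in the fit, other thresholds, and leaving out each library were the alternatives. Leaving out the 3 libraries apart on the second component was added after seeing the data. Genes named are the 10, the most abundant gene and up to 5 called genes of largest change of each related list, the most abundant marker of each marker list, and the 5 most alike genes; others were chosen after their values were seen. The genes, lists and tests were chosen with earlier results of these data known. The tests were tried on simulated data. Promoter sequences came from RefSeq.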

Additional observations from a re-analysis of the deposited data

Results flagged for a closer look

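Among 34 sets of 6 naive libraries that were checked for a single library far from the rest, 9 had one. Chance gives about 1 in 20 for continuous values, a rate that does not apply to the 4 transcripts named below that are at or next to 0 in every other naive library. For whole genes these were Fbn2 in naive replicate 2 (15.9 CPM), Mfap4 in naive replicate 4 (8.67 CPM) and Fbln2 in naive replicate 5 (181 CPM). The last is one of the 3 libraries with high Fbln2-202.

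For shares of a gene's TPM they were Mfap2-203 in naive replicate 4 (7.30%), Mfap4-204 in naive replicate 6 (24.4%), Mfap4-203 in naive replicate 3 (23.0%), Mfap5-202 in naive replicate 2 (63.7%), Mfap5-203 in naive replicate 4 (4.17%) and Fbln5-202 in naive replicate 3 (13.4%). Mfap2-203, Mfap4-204, Mfap4-203 and Mfap5-203 are listed at or next to 0 in the other 5 naive libraries.

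The injury effect differed between day 7 and day 1, by the interaction test of edgeR, for Eln (2.01 on the log2 scale), Fbn2 (3.19), Mfap2 (2.17), Mfap4 (3.76) and Mfap5 (2.87). All 3 day 7 injured libraries were above all 3 contralateral ones for each of these genes, while at day 1 this held for Fbn2 and Mfap2. The genes were picked by a test on these same values, so that order adds no support. The share of all genes with such a separation was not counted. For Eln the call rests on the choice of method and libraries.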

How the results depend on the processing

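Of the 10 genes, 9 were called at day 7 against naive in the analysis reported, and 8 to 9 were called over its 9 changes of method, threshold or libraries and its 15 single-library omissions, with Fbln2 the gene lost at an FDR limit of 0.01 and without day 7 injured replicate 3. Against the day 7 contralateral knee it was 9 throughout 9 changes and 18 omissions, against day 1 injured 8 to 9, and for the interaction 4 to 6. The 4 comparisons with no gene of the 10 called stayed at 0 in each alternative. No fold change of a called gene changed sign. For Fbn2 against naive, transcript length offsets gave 3.44 on the log2 scale, against 4.42 and a range of 4.27 to 4.56 when single libraries were left out. The number of transcript shares with an exact p under 0.05 was 2, from 1 to 5 when single libraries were left out (1 without naive replicate 1, 4 without naive replicate 5, 5 without day 7 injured replicate 3), and 3 by estimated counts; the cause was not tested. No paired analysis was possible because the labels do not say which knees share a pool. Pools of mice, small groups of 3 and reads assigned to transcripts by estimation limit what the transcript results can show.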
